A study of Drosophila melanogaster with 3 samples.

Results

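The 8 Hox genes of Drosophila melanogaster were examined for binding of Ets65A-eGFP: labial (lab), proboscipedia (pb), Deformed (Dfd), Sex combs reduced (Scr), Antennapedia (Antp), Ultrabithorax (Ubx), abdominal A (abd-A) and Abdominal B (Abd-B). They were taken by name from the Ensembl annotation of the dm6 genome, where all 8 lie on chromosome arm 3R, among 13945 protein-coding genes of the 6 main arms. Each gene was given a window of its body and 10 kb on either side, and a peak belonged to the window that held its summit. Ets65A belongs to the ETS transcription factors, which recognise DNA with a GGAA core. Chromatin was precipitated from whole embryos of both sexes aged 0 to 24 h, in 1 group of 3 biological replicates with 1 technical replicate each. All embryos came from the same transgenic line, ets3-GFP, in which Ets65A carries GFP at its C-terminus. The labels describe an anti-GFP precipitation, while their antibody field names Ets65A. No untagged or input group was analysed here. Because the embryos were whole and of mixed stages, a site bound in few cells and a site bound weakly in many cannot be told apart.

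Hox genes encode homeodomain transcription factors that give segments their identity along the head-to-tail axis. In Drosophila they are split between the Antennapedia complex (lab, pb, Dfd, Scr, Antp) and the bithorax complex (Ubx, abd-A, Abd-B), where the order of the genes follows the order of the body regions they specify. Much of their regulation comes from long introns and from the DNA between genes, which hold enhancers, chromatin boundaries and Polycomb response elements. Polycomb and Trithorax group proteins keep Hox genes off or on after the early patterning factors have gone.

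Peak lists of 3 kinds were used, and in each a peak carries a score from the authors, its signal value, of unstated scale. The IDR list held 2780 peaks kept by the authors for their irreproducible discovery rate, which measures how well replicates rank the same peaks. The pooled list, called on the replicates together, held 28940 peaks and runs down to weak calls, with a lowest −log10 q-value of 0.0177 against 3.23 in the IDR list. Each replicate's own list held 30000 peaks. The lists hold no read counts, so sequencing depth is unknown.

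Ets65A-eGFP left 9 IDR peaks in the Hox windows, and none of them was at a Hox promoter. Antp and Ubx had 3 IDR peaks each, lab, abd-A and Abd-B had 1 each, and pb, Dfd and Scr had none. Of the 8 Hox genes, 5 thus had an IDR peak in the window, against 51.5% of all protein-coding genes. Within the gene body 2 Hox genes, Antp and Ubx, had an IDR peak, against 7.90% of all protein-coding genes. Long genes have more room for one, and among protein-coding genes within 25% of the length of each Hox gene the share was 49.5% for Antp, 40.3% for Ubx and 18.9 to 32.9% for the other 6. Promoter here means any position up to 500 bp from an annotated transcription start site (TSS). By this measure 0 of the 8 Hox genes had an IDR peak at a promoter of their own, against 15.8% of all protein-coding genes.

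The DNA under the 5 peaks of highest signal value is shown. All 5 lay away from promoters, in or beside Antp, Ubx, abd-A and Abd-B, and 4 of them in introns. Each sequence runs 100 bp to either side of the summit, on the plus strand of the RefSeq dm6 genome, 5′ to 3′. Capitals mark the ETS core (GGAA, or TTCC for the other strand) and a core of the sequence known for the insulator protein CTCF (GCGCCACCT or GCGCCATCT). The windows are 3R:16798763-16798963 downstream of abd-A, 3R:6914483-6914683 in an Antp intron, 3R:16919142-16919342 downstream of Abd-B, 3R:16704382-16704582 in a Ubx intron and 3R:6912271-6912471 in an Antp intron.
abd-A, downstream: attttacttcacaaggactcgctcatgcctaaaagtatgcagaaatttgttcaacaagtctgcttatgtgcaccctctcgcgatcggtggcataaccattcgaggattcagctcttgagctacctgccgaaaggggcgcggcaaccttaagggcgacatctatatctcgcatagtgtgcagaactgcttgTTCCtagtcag
Antp, intron, 18257 bp from a TSS: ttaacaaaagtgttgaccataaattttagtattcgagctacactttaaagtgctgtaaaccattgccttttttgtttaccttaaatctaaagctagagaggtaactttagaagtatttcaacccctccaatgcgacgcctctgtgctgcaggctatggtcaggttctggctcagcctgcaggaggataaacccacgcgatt
Abd-B, downstream: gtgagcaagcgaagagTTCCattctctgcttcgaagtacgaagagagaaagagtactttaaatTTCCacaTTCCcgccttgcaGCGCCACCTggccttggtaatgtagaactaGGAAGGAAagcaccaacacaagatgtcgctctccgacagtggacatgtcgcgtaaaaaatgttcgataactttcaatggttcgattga
Ubx, intron: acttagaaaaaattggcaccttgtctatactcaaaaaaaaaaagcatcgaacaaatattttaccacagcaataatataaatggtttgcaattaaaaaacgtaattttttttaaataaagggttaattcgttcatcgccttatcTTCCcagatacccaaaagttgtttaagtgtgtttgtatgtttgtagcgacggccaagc
Antp, intron, 20469 bp from a TSS: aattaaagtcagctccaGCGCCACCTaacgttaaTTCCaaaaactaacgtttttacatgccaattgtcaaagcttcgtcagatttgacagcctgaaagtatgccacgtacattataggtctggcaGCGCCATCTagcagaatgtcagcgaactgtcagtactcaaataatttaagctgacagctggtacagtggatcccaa
The ETS core was present in 4 of the 5 and absent from the Antp window 18257 bp from a TSS. So short a core is common, and 75.9% of all 2780 IDR peaks held it, so its presence does not set these peaks apart.

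The strongest Hox peak by far was at abd-A, the gene that specifies much of the abdomen. It lay at 3R:16798787-16799004, between genes, 8351 bp beyond the 3′ end of abd-A and 29242 bp from its nearest TSS. Its signal value was 253.9, rank 238 of the 2780 IDR peaks, and no other Hox peak exceeded 107.7. The replicates' own signal values were 79.4, 107 and 61.0 in replicates 1, 2 and 3, a mean of 82.5 ± 23.3 (SD, n = 3). It ranked 191, 204 and 561 in the 3 replicate lists, the highest rank among the 9 Hox peaks in each of them. The nearest annotated TSS of any kind was that of lncRNA:CR45750, at 1737 bp, and the nearest of a protein-coding gene was that of Glut3, at 10552 bp. Among 506 protein-coding genes within 25% of the length of abd-A, 91.3% had a weaker best peak in their windows, with a median of 91.9. For the other Hox genes the same share ran from 19.7% (pb) to 58.5% (Abd-B).

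Antp, which specifies thoracic identity and leg development, is the longest Hox gene, with 102976 bp at 3R:6896253-6999228 on the minus strand. Its 3 IDR peaks were all in introns, 18257, 20469 and 3505 bp from the nearest Antp TSS. The peak at 3R:6914388-6914777 had a signal value of 107.7 and replicate values of 27.6, 43.5 and 39.1, a mean of 36.7 ± 8.22 (SD, n = 3). The peak at 3R:6912176-6912565 had a signal value of 91.8 and replicate values of 20.4, 53.1 and 26.4, a mean of 33.3 ± 17.4 (SD, n = 3). The peak at 3R:6936150-6936539 had a signal value of 84.2 and replicate values of 13.8, 47.2 and 21.7, a mean of 27.6 ± 17.4 (SD, n = 3). In all 3 peaks replicate 2 was the highest and replicate 1 the lowest. The annotation places CG46458 over the same introns, so these peaks lie inside both genes.

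Ubx, which separates the third thoracic segment and its halteres from the segment in front, spans 3R:16656623-16734426 on the minus strand. Its intronic peak at 3R:16704287-16704676 lay 29944 bp from the TSS and had a signal value of 100.4. The replicate values were 19.5, 44.7 and 33.6, a mean of 32.6 ± 12.6 (SD, n = 3). The other two IDR peaks in the Ubx window lay beyond its 3′ end, at promoters of neighbouring genes. One was 160 bp from the TSS of CG10324, with a signal value of 75.3 and replicate values of 16.7, 35.3 and 25.4. The other was 213 bp from the TSS of modSP, a serine protease of the Toll immune pathway, over an annotated copy of the transposon INE-1, with a signal value of 73.6 and replicate values of 30.1, 16.3 and 27.7.

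Abd-B specifies the posterior abdomen and the genital segments. Its IDR peak at 3R:16919047-16919436 lay 7970 bp beyond its 3′ end, in an intron of lncRNA:iab8, and 15000 bp from the nearest Abd-B TSS. The signal value was 107.7 and the replicate values were 24.2, 48.0 and 31.0, a mean of 34.4 ± 12.2 (SD, n = 3). The enhancers of Abd-B are known to lie on this 3′ side of the gene. For lab, which acts in the head and the midgut, the IDR peak was 3950 bp beyond the 3′ end, 35 bp from the TSS of the neighbour CG1307. It had a signal value of 72.0 and replicate values of 22.4, 22.4 and 29.6, a mean of 24.8 ± 4.13 (SD, n = 3).

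**Figure D1:**
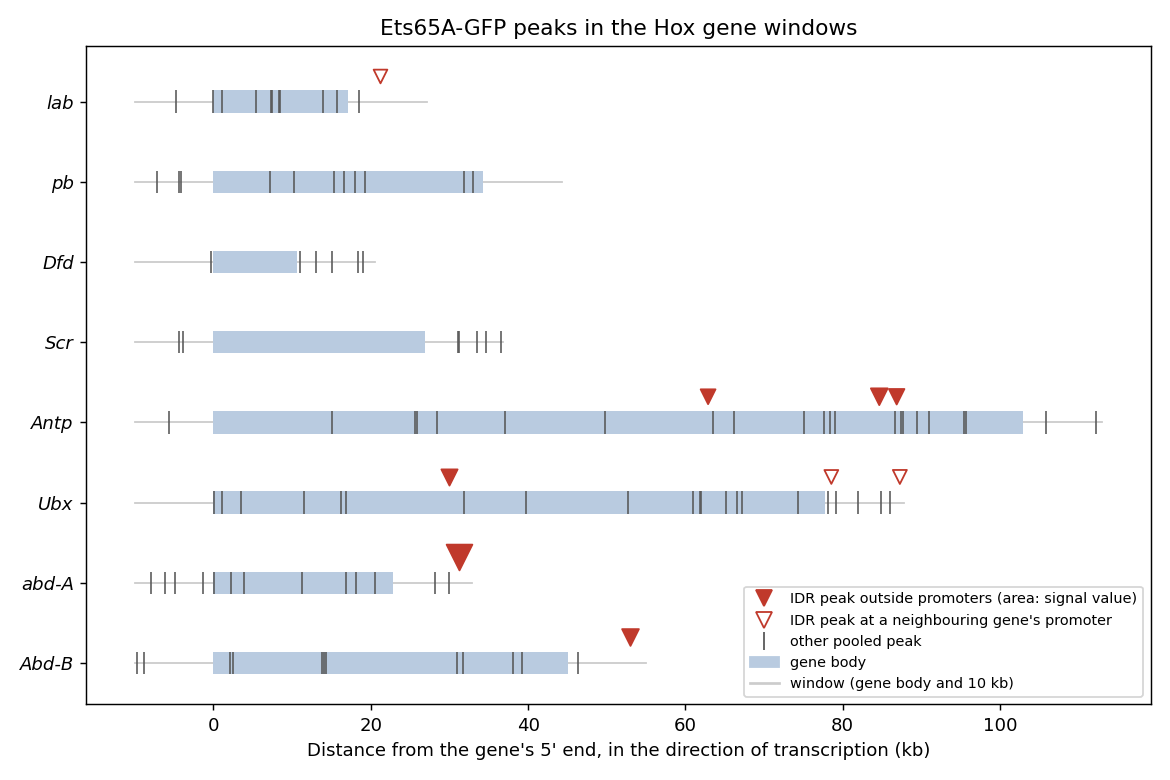
Peaks along the 8 Hox genes, drawn in the direction of transcription; the horizontal axis is the distance in kb from the gene's 5′ end, bars are gene bodies, lines are windows, ticks are pooled peaks and triangles are IDR peaks, with the area of filled ones following the signal value. The 6 filled triangles lie in Antp, in Ubx and beyond the 3′ ends of abd-A and Abd-B, while the 3 open ones mark promoters of neighbouring genes.

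Split by position, 3 of the 9 peaks were thus at promoters of genes other than Hox genes, 5 in introns and 1 between genes. In the whole IDR list, promoters took 59.1%, introns 26.7% and intergenic DNA 11.3%. The 5 IDR peaks outside the gene bodies all lay on the 3′ side, and none was within 10 kb upstream of a Hox gene. With only 9 peaks the 95% Wilson interval of the promoter share was 12.1 to 64.6%, which covers counting error over peaks only.

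Most Hox peaks were in the weaker part of the IDR list. Their median signal value was 91.8, against 110.2 in the whole IDR list, and only the abd-A peak was above that median. The list's lowest signal value was 71.8, so the lab peak at 72.0 (rank 2757) was just inside it. The strongest Hox peak just outside it was one of Scr at 69.4, rank 2932 of the pooled list.

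All 9 IDR peaks had a counterpart in each of the 3 replicate lists, from which the IDR list was derived, as did 97.3% of the whole IDR list. A stricter measure takes each replicate's 2780 strongest peaks, as many as the IDR list holds. The peak downstream of abd-A, the Antp peak of signal value 107.7 and the Abd-B peak were among these in all 3 replicates, 4 further peaks in 2 replicates and the other two in 1. That is 3 of 9 Hox peaks in all 3 replicates, against 59.4% of the whole IDR list. This measure depends on strength, and only 1 of the 9 Hox peaks was above the median signal value of that list. The part of strength in the lower share was not tested. The Antp peak of signal value 84.2 ranked 7084, 1248 and 4332 in replicates 1, 2 and 3, and the modSP peak ranked 1346, 7011 and 2773. Peaks shared by the strongest lists of only 2 replicates numbered 4 in the Hox windows without replicate 1, 6 without replicate 2 and 4 without replicate 3, against the 9 of the IDR list. This overlap is a different rule from the authors' IDR and can only keep part of each list. The lower counts therefore cannot be read as a loss of Hox peaks.

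**Figure D2:**
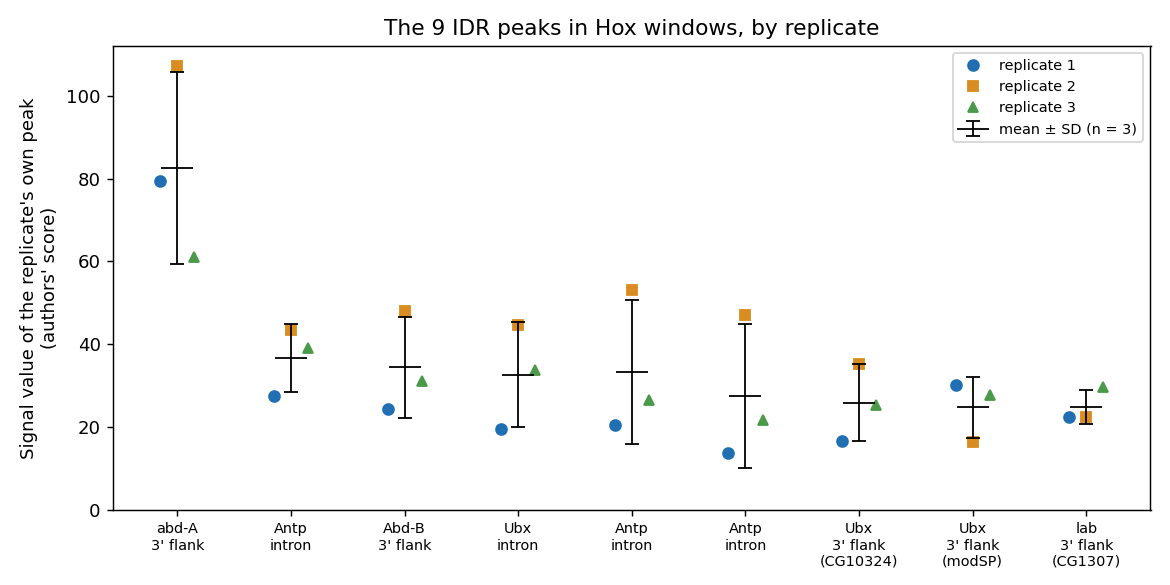
Signal value (authors' score) of each replicate's own peak at the 9 IDR peaks in Hox windows, ordered by signal in the IDR list; bars are the mean ± SD of 3 replicates. The abd-A peak stands above the other 8 in every replicate, from 61.0 to 107, while the others range from 13.8 to 53.1 and replicate 2 is the highest at 6 of them.

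Counted directly in the replicates, the merged Hox windows held 10, 8 and 7 of the strongest peaks of replicates 1, 2 and 3, a mean of 8.33 ± 1.53 (SD, n = 3). abd-A had 1 in every replicate, and Antp had 3, 4 and 1. Ubx had 1, 2 and 2, Abd-B had 2, 1 and 2, and lab had 1, 0 and 1. pb and Scr had none in any replicate. Dfd had 2 in replicate 1 and none in the other replicates. Both of these lay downstream of Dfd, where the pooled peaks had signal values of 41.7 and 42.1.

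The pooled list held 112 peaks in the Hox windows, and here every Hox gene had some. The counts were 12 for lab, 11 for pb, 6 for Dfd, 7 for Scr, 25 for Antp, 24 for Ubx, 14 for abd-A and 13 for Abd-B. Their median signal value was 25.4, against 26.0 in the whole pooled list, and 16 of the 112 reached a −log10 q-value of at least 2. Of the 112, 28 were found in all 3 replicate lists (25%), 44 in 2, 35 in 1 and 5 in none, against 29.3% found in all 3 in the whole pooled list. Single pooled peaks below the IDR threshold are therefore described here by value and not counted as binding sites.

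At their own promoters, 6 of the 8 Hox genes had a pooled peak, against 53.6% of all protein-coding genes. The strongest was at Dfd, which specifies the mandibular and maxillary segments of the head, 323 bp from its TSS. It had a signal value of 52.2, and its replicate values were 8.31, 24.8 and 19.5. The Abd-B promoter peak had a signal value of 48.9, 38 bp from a TSS, was missing from the list of replicate 1, and had values of 20.1 and 19.1 in replicates 2 and 3. The Antp promoter peak had a signal value of 43.0 and replicate values of 19.0, 18.3 and 9.73. Promoter peaks of abd-A (28.4), Ubx (27.9) and lab (27.4) were weaker, and each was missing from at least 1 replicate list. pb and Scr had no pooled peak at a promoter. All these promoter signal values were below the lowest value of the IDR list, 71.8.

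Scr and Dfd were the only Hox genes without a pooled peak inside the gene body. Scr specifies the labial segment and the front of the thorax and is needed for salivary glands. Its body, 26862 bp at 3R:6823120-6849981, held 0 pooled summits, against a median of 6 in 427 protein-coding genes within 25% of that length, of which 12 (2.81%) also held none. The body of Dfd, 10593 bp at 3R:6791836-6802428, held 0, against a median of 2 in 811 genes of like length, of which 112 (13.8%) held none. The pooled peaks of both genes lay in the flanks, 7 for Scr and 6 for Dfd. In the own lists of replicates 1, 2 and 3, the Scr window held 10, 13 and 10 peaks and the Dfd window 9, 10 and 8. These were not split into body and flanks, so the empty bodies are a finding of the pooled list alone. The strongest Scr peak, 4395 bp beyond the 3′ end and between genes, had a signal value of 69.4 and replicate values of 18.9, 25.3 and 24.0. It lay 1169 bp from the nearest annotated TSS, that of tRNA:Lys-TTT-2-1.

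pb, which specifies the adult mouthparts, had 8 of its 11 pooled peaks in the gene body, 7 of them in introns and 1 in a coding exon. The strongest, in an intron, had a signal value of 43.2, was missing from the list of replicate 1 and had values of 24.4 and 16.4 in replicates 2 and 3. Other pooled peaks with a −log10 q-value of at least 2 were an Antp intronic peak of 60.5, an Antp 3′ UTR peak of 49.9, a peak of 54.1 upstream of abd-A and an Abd-B intronic peak of 48.5.

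More of the pooled Hox peaks lay in introns, and fewer at promoters, than in the whole pooled list. Introns held 61 of the 112 Hox peaks (54.5%, 95% Wilson interval 45.2 to 63.4), against 35.3% of the whole list (34.7 to 35.8). Promoters held 14 (12.5%, 7.59 to 19.9), against 28.4% (27.9 to 28.9). Intergenic DNA held 19 (17.0%, 11.1 to 24.98), against 17.5%, and coding exons 9 (8.04%, 4.29 to 14.6), against 13.7%. Neighbouring pooled peaks can share a replicate peak, so these intervals are too narrow. The windows are also built around long genes. In the windows of genes of like length, a comparison chosen after seeing the data, the intron share was close to that of the longest Hox genes: Antp had 68% against 65.1%, and Ubx 58.3% against 61.3%. It was 69.2% against 51.8% for Abd-B, 63.6% against 46.6% for pb, 50% against 33.8% for lab and 42.9% against 39.1% for abd-A, and it was lower for Scr, at 28.6% against 42.9%, and Dfd, at 0% against 24.5%. Introns of any gene in the window count here. The intron peaks of the Scr window lay in lncRNA:CR42651, downstream of Scr. Some of the abd-A window lay in MSAmiP and lncRNA:iab8, and some of the Abd-B window in lncRNA:iab8 and AhcyL2. The promoter share was lower than in windows of genes of like length for 7 of the 8 Hox genes and higher for Ubx, at 20.8% against 17.0%, on 6 to 25 peaks a gene. Promoters of any protein-coding gene count. Besides the peak at its own promoter, the Ubx window held promoter peaks of CG10324, CG14907 and modSP. The lab window held those of CG1307 and agt, and the Abd-B window that of AhcyL2. Several Hox windows held few start sites. The Dfd window held 1 TSS of a protein-coding gene, against a median of 8 in windows of genes of like length, and Scr held 2 against 7, abd-A 3 against 7 and Antp 3 against 9. The windows of pb and Ubx held 6 against 7, that of lab 7 against 7, and that of Abd-B 10 against 7. The part of start site number in the promoter share was not tested.

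**Figure D3:**
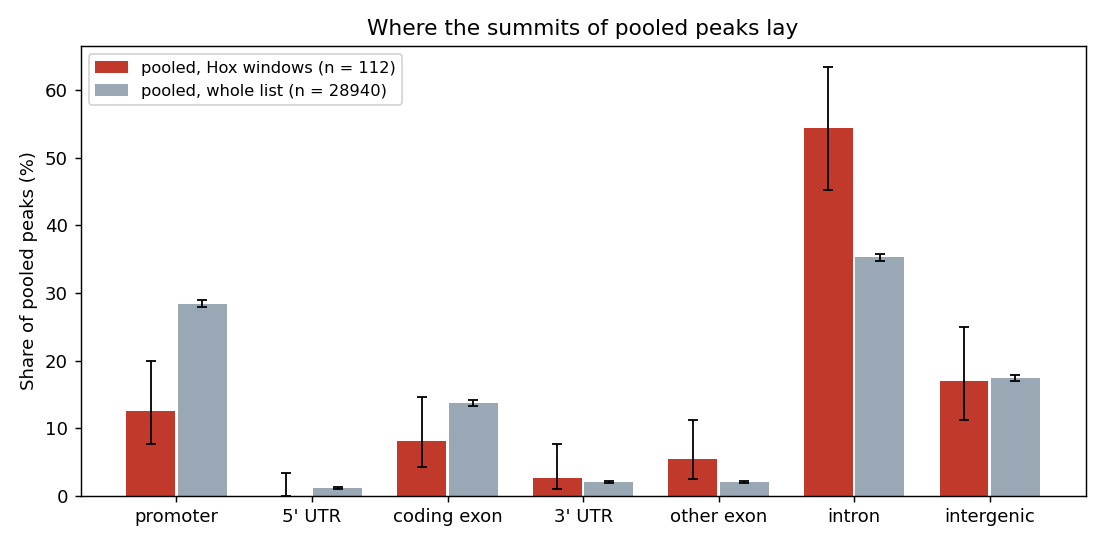
Share (%) of pooled peaks by the place of the summit, for the Hox windows (left bar of each pair) and the whole pooled list (right bar); error bars are 95% Wilson intervals over peaks. The intron bar of the Hox windows stands at 54.5% and the promoter bar at 12.5%, against 35.3% and 28.4% in the whole list.

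Set against protein-coding genes of like length, Antp and Ubx had more IDR peaks than the median and pb, Dfd and Scr fewer. Antp had 3, more than 74.7% of 95 genes, while 15.8% had more. Ubx had 3, more than 79.2% of 154 genes, while 13.0% had more. The median of the genes of like length was 1 IDR peak for each of the 8. lab, abd-A and Abd-B had 1, as did 30.4%, 26.9% and 24.7% of their 608, 506 and 316 genes of like length. pb, Dfd and Scr had none, whereas 58.3%, 61.9% and 56.9% of their genes of like length had at least 1.

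With IDR peaks outside promoters alone, a count chosen after seeing the data, 4 Hox genes exceeded the median. Antp had 3 against a median of 1, more than 83.2% of genes of like length. Ubx, abd-A and Abd-B had 1 each against a median of 0, more than 56.5%, 67.0% and 63.6%. In the pooled list, Ubx had 24 peaks against a median of 18, Antp 25 against 22, abd-A 14 against 11 and lab 12 against 10. Abd-B had 13 against 14, pb 11 against 13, Scr 7 against 12 and Dfd 6 against 10.

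**Figure D4:**
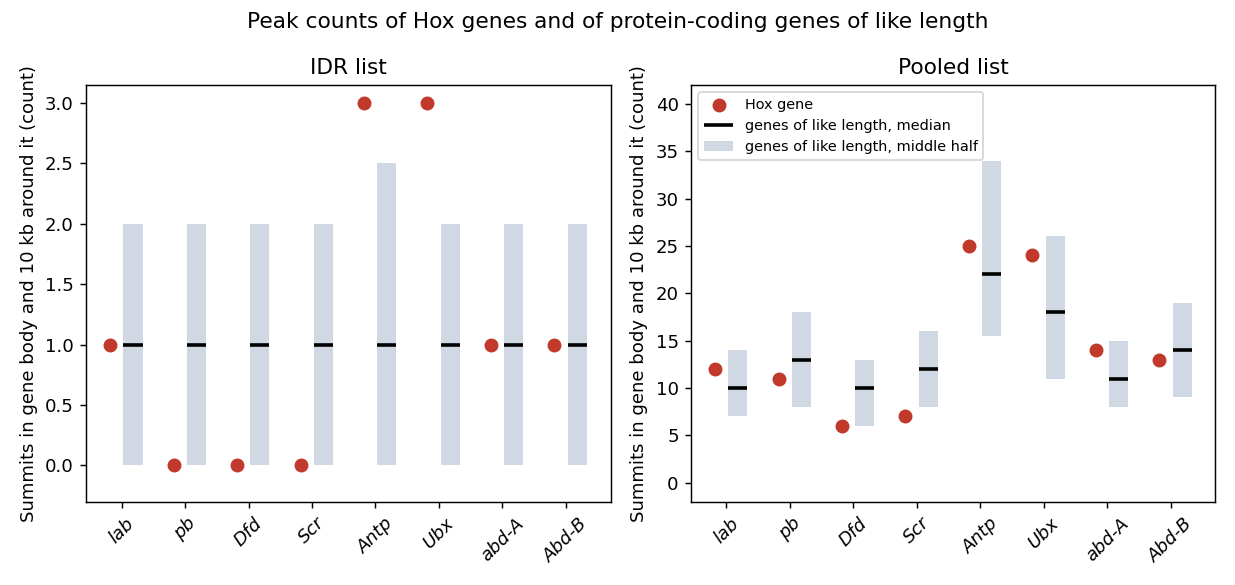
Number of IDR peaks (left) and pooled peaks (right) in the window of each Hox gene (red points), beside the median (black line) and the range from the lower to the upper quartile (grey bar) of protein-coding genes within 25% of its length. Antp and Ubx lie above the quartile range for IDR peaks with 3 each, and Scr lies below it for pooled peaks with 7.

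In a negative binomial regression of IDR peak counts on window length over all 13945 protein-coding genes, none of the Hox genes was called. Antp had 3 peaks where 1.96 were fitted for its window length, Ubx 3 where 1.75 were, and pb 0 where 1.31 were. The adjusted p was 1 for every Hox gene. The share of all genes called was 0% in either direction, and 142 genes, none of them a Hox gene, had an unadjusted p under 0.05. With a Poisson spread 421 genes had an unadjusted p under 0.05 and 10 were called, again with no Hox gene among them. For pb, Dfd and Scr a count of 0 is the lowest there can be, and its unadjusted p in the negative binomial fit was 0.736, 0.900 and 0.778, so the fit could not call these genes low.

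The closest gene in length gives a direct partner for each. Antp had 3 IDR and 25 pooled peaks, against 1 and 20 for RhoGEF64C (103471 bp), and Ubx had 3 and 24, against 0 and 4 for side-VI (77795 bp). Abd-B had 1 and 13, against 5 and 25 for Sarm (45024 bp). Scr had 0 and 7, against 2 and 14 for ChAT (26844 bp), and Dfd had 0 and 6, against 2 and 11 for sra (10586 bp). For pb it was 0 and 11, against 2 and 20 for KrT95D (34290 bp), and for lab 1 and 12, against 0 and 9 for opa (17167 bp). abd-A had 1 and 14, against 1 and 11 for OtopLa (22812 bp). lab, Antp and Ubx thus had more of both kinds of peak than their partners, and pb, Dfd, Scr and Abd-B fewer. Each partner is a single gene and can be far from typical for its length. The 4 pooled peaks of side-VI compare with a median of 18 in genes of like length. The 5 IDR and 25 pooled peaks of Sarm compare with medians of 1 and 14, close to the counts of Abd-B.

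Per length, the Hox windows together (497.5 kb) held 1.81 IDR and 22.5 pooled peaks per 100 kb, against 2.11 and 22.0 on arm 3R. The Hox gene bodies held 1.19 and 21.0. Their IDR figure rests on 4 peaks, and the arm, unlike the bodies, includes DNA between genes. Taken from end to end with 10 kb on either side, the Antennapedia complex held 5 IDR peaks, or 1.40 per 100 kb, and the bithorax complex 7, or 2.09 per 100 kb. Of these, 3 lay between the windows. The strongest was at the promoter of bcd, the anterior patterning gene within the Antennapedia complex, 183 bp from its TSS, with a signal value of 175.6 and replicate values of 61.9, 62.2 and 56.6. Another lay in an intron of lncRNA:bxd, 14312 bp from Ubx, with a signal value of 100.7 and replicate values of 29.6, 35.0 and 33.1. The last lay within lncRNA:iab8 and MSAmiP, 39352 bp from abd-A, with a signal value of 105.7 and replicate values of 20.9, 49.3 and 33.8.

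With only 9 peaks, the ETS letters were about as frequent under Hox peaks as in the whole IDR list. Within 100 bp of the summit, GGAA on either strand was present in 8 of the 9 IDR peaks, at 17 sites, against 75.9% of all 2780 IDR peaks. DNA outside the IDR peaks was not searched, so how often so short a core falls in any such window was not tested. The consensus (C, then A or C, then the core, then A or G, on either strand) was in 0 of 9, against 8.02%. The GAGA factor letters GAGAG were in 4 of 9, against 22.6%, and the core of the Polycomb recruiter Pho, GCCAT, in 3 of 9, against 29.5%. The homeodomain letters TAATTA were in 0 of 9, against 14.6%, and the promoter element DRE, TATCGATA, in 1 of 9, the modSP peak, against 5.83%.

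The CTCF core was added after the sequences had been read. CTCF is known for its role at chromatin boundaries of the bithorax complex. Of the 9 Hox IDR peaks 2 held it, against 82 of all 2780 (2.95%). Since these same peaks prompted the search, their share cannot be weighed against that of the whole list. The Abd-B peak held it from 17 to 9 bp before the summit. The Antp peak 20469 bp from a TSS held it at 2 places, 83 to 75 bp before and 25 to 33 bp after the summit. The second, GCGCCATCT, contains the Pho letters GCCAT within itself, so it always matches both. It is also the only Pho match counted for this peak above. Between the windows, the lncRNA:bxd peak held it as well. A match in these letters is a description of the DNA and says nothing of whether CTCF was bound.

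Genes that act with or on the Hox genes were counted by the same measures, with lists chosen when earlier results were known. In the Polycomb group, 6 of 14 genes had an IDR peak at a promoter and 11 of 14 in the window, with promoter signal values of 1011 at ph-p, 123 at E(z) and 116 at Su(z)12. In the Trithorax group, it was 3 of 7 at a promoter and 7 of 7 in the window, with 259 at brm, 179 at Trl and 91.8 at mor. Of the cofactors and partners exd, hth, tsh and tio, none of 4 had one at a promoter, and tsh (134) and hth (73.7) had one in the window. The gap genes hb, Kr, kni, gt and tll, which set the early domains of Hox expression, had none of 5 in either place. Of 8 genes known as Hox targets, fkh, which Scr activates in the salivary gland, had a promoter peak of 122 and dpp had a window peak of 133. Of the non-Hox homeobox genes zen, zen2, bcd and ftz, bcd alone had one at a promoter, and of 6 noncoding genes of the complexes 0 had one at a promoter and 2 had one in the window. The shares over all protein-coding genes were 15.8% at a promoter and 51.5% in the window.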

How the data were processed

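Peak lists of Ets65A-eGFP chromatin from 3 biological replicates in 1 group were used, in the dm6 build. Per the file headers, the authors called 1 list per replicate and 1 on the pooled alignments, each against a control, and derived the IDR list from these. The deposited values per peak are a signal score of unstated scale, a q-value as −log10 q, which reaches a ceiling in each list, and the summit's offset from the peak start. Which aligner, caller and IDR threshold were used is not given in the sources used here. Alignments, signal tracks, the control and the dm3 lists were not used here.

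Summits were placed on the Ensembl release 115 annotation (BDGP6.54) by the promoter distance of 500 bp if that applied, then by exon type (UTR, coding or other), then as in an intron of any gene, and otherwise as intergenic. A replicate's peak was matched by an overlap of at least 1 bp, so 1 replicate peak can match neighbouring pooled peaks. Ranks are by signal score. Genes of like length were protein-coding genes within 25% of a Hox gene's length, without the Hox genes. Counts were fitted by negative binomial regression on log window length (scipy 1.17.1), with a two-sided tail p, Benjamini-Hochberg adjustment over all 13945 genes and a threshold of 0.05, after a test on simulated data. Genes are not replicates and neighbouring windows share peaks, so this p is a description over genes. Nothing says whether the replicates came from separate crosses. Sequences and motifs were read from the RefSeq dm6 genome.

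Text names the 8 Hox genes, every IDR peak in their windows, the pooled peak of highest signal for each gene, nearer neighbours, up to 3 members per list and the gene closest in length, and also the other pooled peaks with −log10 q of at least 2, those at Hox promoters and the Dfd peaks of replicate 1, chosen after their values were seen. The Hox genes and the lists were chosen with earlier results of these data known. Alternatives changed the window, threshold, promoter distance, replicates, like-length rule and fit.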

Additional observations from a re-analysis of the deposited data

How the results depend on the processing

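The count of 9 IDR peaks in Hox windows became 4 in the gene bodies alone, 1 in the strongest 1390 IDR peaks, and, counting overlaps between the strongest 2780 peaks of the remaining replicates, 4 without replicate 1, 6 without replicate 2 and 4 without replicate 3. The 5 Hox genes with an IDR peak became 2 in the gene body, 3 with 5 kb, 1 in the strongest 1390, and 4, 5 and 3 without replicates 1, 2 and 3. The counts without a replicate follow a different rule from the IDR list, so their fall cannot be assigned to the replicate left out. The 112 pooled peaks became 71 in the gene bodies and 16 at a −log10 q-value of at least 2. No Hox gene had an IDR peak at a promoter within 250 or 1000 bp or without any one replicate, while 6 had a pooled one. The mean of 8.33 strongest replicate peaks became 4 in the gene bodies, 6 with 5 kb, 12.3 with 20 kb, 2.67 with 1390 peaks, 22 with 5560, and 7.5 to 9 without a replicate. The 2 Hox genes above the median of like length, Antp and Ubx, both dropped out in the strongest 1390 peaks, where abd-A was the 1 gene above it, and became 4 with peaks outside promoters alone, chosen after seeing the data. No Hox gene was called in any version of the fit. Of 56 comparisons with an alternative, 38 stayed within a limit of 1.5 times the reported count or, for the mean of replicates, 1 SD, which is narrower. Among the 38 are counts of 0 that stayed 0, for Hox genes called in the fit and for IDR peaks at Hox promoters. The tally of 38 therefore overstates how stable the other results were. What sets the differences between replicates was not tested, since no read counts were used. No paired analysis was possible because there was 1 group.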
